A study of Mus musculus with 6 samples.

Results

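The genes described here encode the constitutive proteasome, the ATP-dependent protease that degrades ubiquitin-tagged proteins in every cell, together with its assembly chaperones and regulators. They are the protein-coding genes of the deposited count table whose symbol begins with Psma, Psmb, Psmc, Psmd, Psme, Psmf or Psmg followed by a number, without the 5 interferon-inducible genes Psmb8, Psmb9, Psmb10, Psme1 and Psme2. This gave 45 of the 55487 genes in the table. Of these, 43 passed the filter on low counts that precedes testing. The rule reads symbols, so it also took in Psmc3ip, which encodes a meiotic recombination factor, and Psme2b, a single-exon copy of Psme2; both are given apart.

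Wild-type C57BL/6 mice gave the primary lung fibroblasts. These were grown in 10% serum, starved in 0.1% serum for 24 h and exposed for a further 24 h to PBS (3 libraries) or to 1 µg/mL of rmCIRBP, the recombinant form of mouse cold-inducible RNA-binding protein (3 libraries). Starvation was common to both groups. Whether replicates were separate animals or separate cultures is not stated in the labels. The p-values therefore reflect only how these samples spread, possibly for technical reasons. CIRBP binds RNA inside the cell, and once released it is known as a ligand of TLR4.

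The 20S core of the proteasome is a barrel of stacked rings. Its outer rings are built of alpha subunits, which gate the entrance, and its inner rings of beta subunits, of which Psmb5, Psmb6 and Psmb7 carry the proteolytic sites. The 19S regulatory particle caps the barrel: its base holds an ATPase ring that unfolds substrates, and its lid removes ubiquitin. In inflamed cells Psmb8, Psmb9 and Psmb10 are built into new cores in place of the constitutive catalytic subunits. When proteasome capacity is short, the transcription factor NRF1 (gene Nfe2l1) is known to induce subunit genes together through antioxidant response elements (AREs) in their promoters.

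Promoter windows of 300 bases around the start site, most of them upstream, were found in the RefSeq table (build GRCm38.p6) for 37 of the 45 genes. Psma8, Psmb1, Psmb2, Psmb7, Psmc3, Psmd3, Psmd7 and Psmg2 had no window and were not searched. They include the catalytic gene Psmb7. Psma6 and Psmc2 each had 2 windows. For both, only the window nearest the 5' end of the annotated gene was used, so their matches are those of 1 window. The windows of Psmd10 and Psma6 are shown because these genes had the smallest p among those that rose, and those of Psmb5 and Psmb6 because they hold the ARE core in catalytic subunit genes. Capitals mark TGACNNNGC (the ARE core) and CCAAT (the CCAAT box), each on either strand. They lie at chrX:140956662-140956961 (minus strand) for Psmd10, chr12:55383972-55384271 (plus) for Psma6, chr14:54617946-54618245 (minus) for Psmb5 and chr11:70525107-70525406 (plus) for Psmb6.
Psmd10: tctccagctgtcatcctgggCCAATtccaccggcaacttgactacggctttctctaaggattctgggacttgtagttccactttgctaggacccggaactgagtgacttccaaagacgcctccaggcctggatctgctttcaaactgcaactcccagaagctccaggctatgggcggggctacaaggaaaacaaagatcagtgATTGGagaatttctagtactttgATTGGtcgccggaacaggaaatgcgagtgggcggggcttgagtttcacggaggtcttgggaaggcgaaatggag
Psma6: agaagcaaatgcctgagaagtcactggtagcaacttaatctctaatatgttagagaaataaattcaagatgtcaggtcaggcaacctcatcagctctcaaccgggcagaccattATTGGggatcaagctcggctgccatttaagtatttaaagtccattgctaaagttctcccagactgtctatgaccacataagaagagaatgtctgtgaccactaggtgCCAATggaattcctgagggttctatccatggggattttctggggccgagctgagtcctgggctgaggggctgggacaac
Psmb5: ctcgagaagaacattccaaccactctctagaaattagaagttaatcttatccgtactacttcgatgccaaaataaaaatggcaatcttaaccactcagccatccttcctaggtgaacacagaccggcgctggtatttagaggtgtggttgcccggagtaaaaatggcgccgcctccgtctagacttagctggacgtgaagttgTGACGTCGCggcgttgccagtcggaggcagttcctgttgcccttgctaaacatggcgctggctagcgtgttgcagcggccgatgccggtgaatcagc
Psmb6: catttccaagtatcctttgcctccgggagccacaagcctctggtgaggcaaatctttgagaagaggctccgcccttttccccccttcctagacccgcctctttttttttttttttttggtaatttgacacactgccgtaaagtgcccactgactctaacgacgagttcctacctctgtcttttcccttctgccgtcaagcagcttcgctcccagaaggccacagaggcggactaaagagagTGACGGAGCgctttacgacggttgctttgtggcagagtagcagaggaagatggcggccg

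The ARE core was present in 6 of the 37 windows (16.2%), those of Psmb5, Psmb6, Psmc6, Psmd9, Psmd12 and Psme4, against 12.4% of all 32851 windows of 300 bases and 14.2% of those of tested genes. CCAAT was present in 14 of 37 (37.8%), against 37.4% of all windows, with 3 matches for Psmd10 and 2 for Psma6. GAAA followed by any 2 bases and GAAA, resembling an interferon-stimulated response element, were in 4 of 37 (10.8%), namely Psmb3, Psmd4, Psmd9 and Psmg4, against 3.44% of all windows. GGG followed by any 2 bases and TTTCC, resembling an NF-kB site, was in 0 of 37, against 1.63% of all windows. Both strands were searched for each motif, the motifs can overlap one another, and a match is only a match of letters.

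Each library held between 12105584 and 14262375 counts. Levels are given as CPM, counts scaled to library size by trimmed mean of M values. A gene without a count could still have up to 3, or 0.210 to 0.248 CPM, by counting error alone. The fibroblast markers summed to 23570 to 28620 CPM in PBS and 19880 to 26620 CPM in rmCIRBP, with Dcn called higher and Thy1 lower among 8. Epithelial markers summed to at most 0.479 CPM in PBS and 0.289 CPM in rmCIRBP, with Nkx2-1 at 0 in all 6 libraries. Macrophage markers summed to 112 to 145 CPM in PBS and 66.5 to 126 CPM in rmCIRBP, most of it Lyz2, with Adgre1 called higher of 5 tested. The 5 did not move alike, with log2 fold changes of 2.46 (Adgre1), 1.11 (Ptprc), 0.43 (Csf1r), -0.41 (Cd68) and -0.55 (Lyz2). Endothelial markers summed to 18.96 to 25.9 CPM in PBS and 4.41 to 7.21 CPM in rmCIRBP, with Kdr and Tek called lower, the 2 of 4 that were tested. The part of these marker differences in the results was not tested. In bulk RNA, fewer cells of a type and less RNA per cell cannot be told apart.

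With rmCIRBP, the proteasome genes shifted upward by a small amount and few of them passed the test one by one. By edgeR's quasi-likelihood test with Benjamini-Hochberg adjustment over all 15801 genes tested, 4 of the 43 genes rose (Psmd10, Psma6, Psme2b and Psmd3) and 0 fell, where 6.74% of all genes tested rose and 4.77% fell. At an unadjusted p under 0.05, 25 of the 43 were higher and 0 lower, where 15% of all genes were higher and 13.8% lower. In 22 of the 43 every rmCIRBP library lay above every PBS library, against 17.5% of all genes, and in 0 every one lay below, against 17.1%. The log2 fold change was above 0 for 38 of 43 genes, against 49.2% of all genes. Its median was 0.28 (range -0.28 to 0.98), against -0.01 over all genes tested.

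These shares set moderately abundant genes beside all genes. The median proteasome gene had a mean of 73.3 CPM against 20.3 CPM over all genes tested, and a standard error (SE) of its log2 fold change of 0.13 against 0.19. Without Psmc3ip and Psme2b, 3 of 41 genes rose, 24 were higher at an unadjusted p under 0.05 and the median was again 0.28. DESeq2 called 9 of the 43 genes higher, adding Psma1, Psmd1, Psmd2, Psmd12 and Psmg4, and 0 lower. It called 9.15% of all genes tested higher. Leaving out PBS 2, PBS 3 or rmCIRBP 1 left 1 gene called, Psmd10. These fits called 3.17%, 3.6% and 3.32% of all genes tested higher. Leaving out rmCIRBP 3 left 2 (5.17% of all genes), and leaving out PBS 1 gave 13 (8% of all genes).

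**Figure D1:**
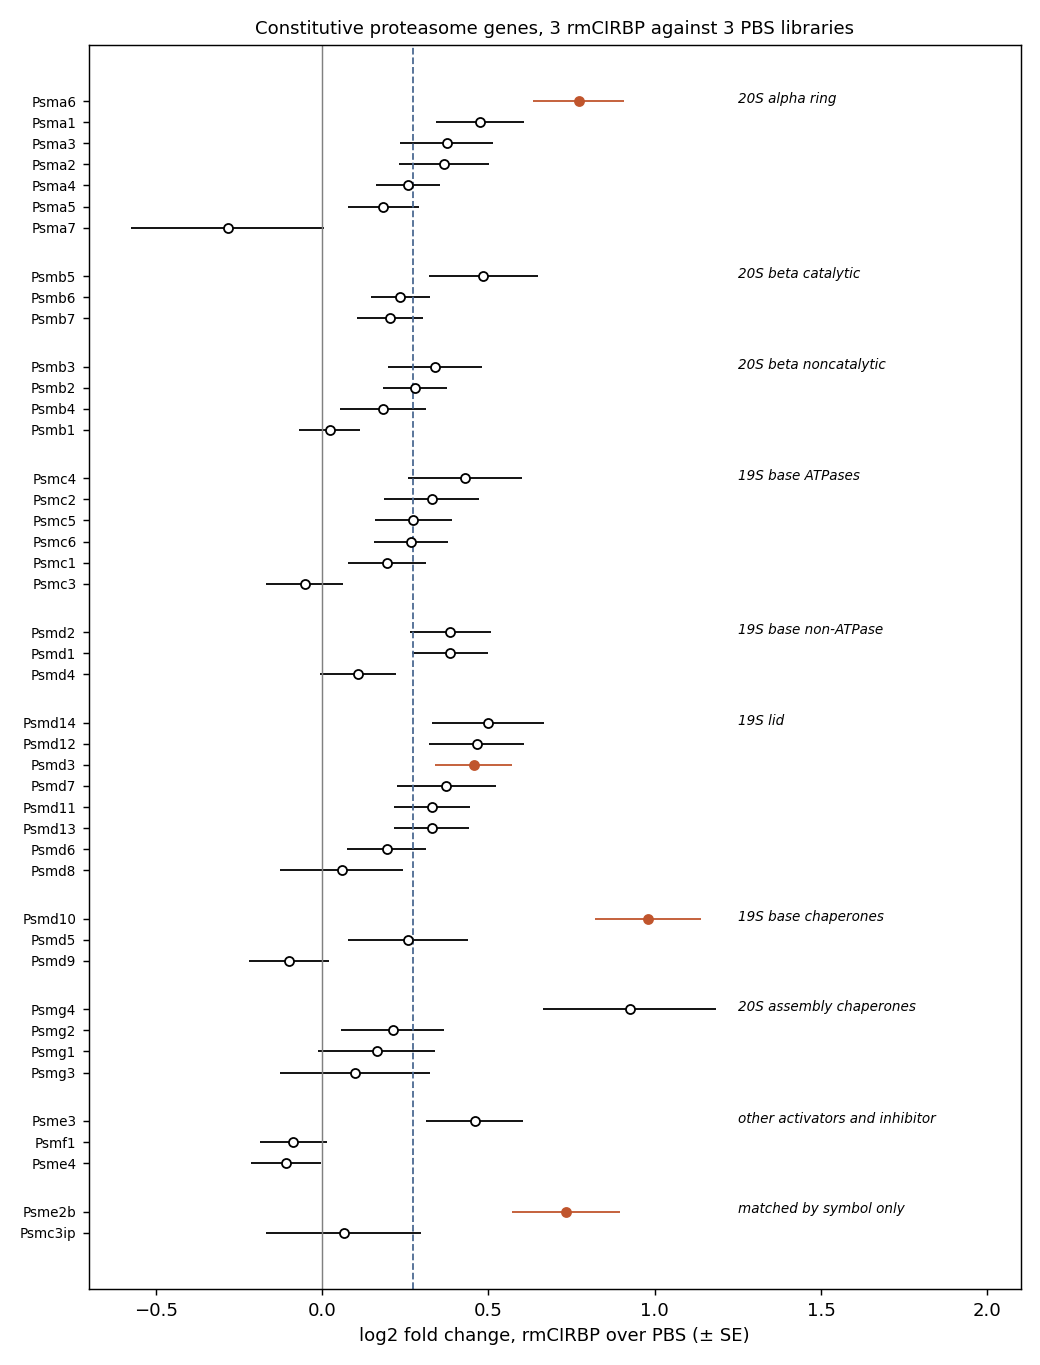
Log2 fold change of each tested gene (points, with SE), rmCIRBP over PBS, in groups by role. Filled points passed the test at an adjusted p of 0.05, and the dashed line is the median of 0.28. Of the 43 points, 38 lie to the right of 0.

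**Figure D2:**
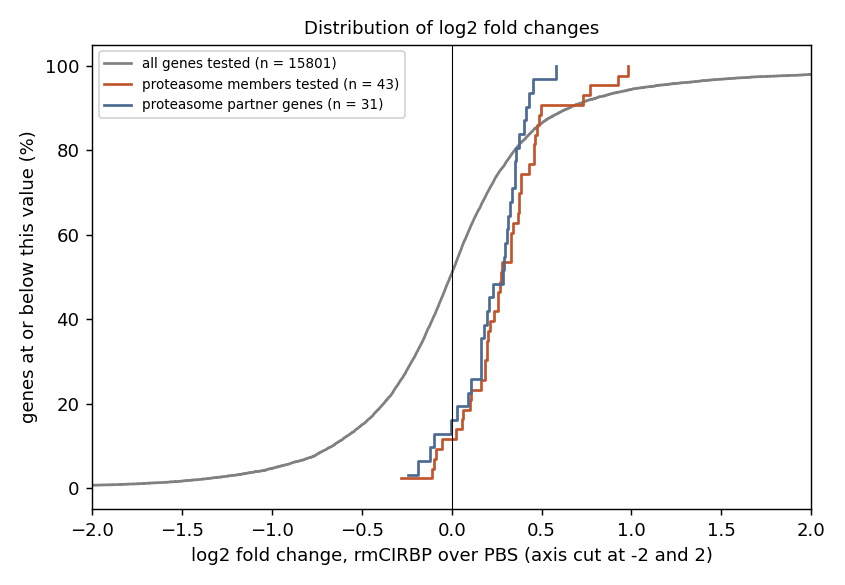
Cumulative share (percent) of genes by log2 fold change, rmCIRBP over PBS, for all 15801 genes tested, the 43 proteasome genes and 31 partner genes. The proteasome curve crosses 0 with 5 genes to its left and is narrower than that of all genes on both sides.

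The summed level of the 45 genes was 3141, 2702 and 2769 CPM in PBS and 3310, 3699 and 3341 CPM in rmCIRBP. The lowest rmCIRBP library therefore lay above the highest PBS library. The means were 2871 ± 237 and 3450 ± 216 CPM (SD, n = 3 each), a ratio of 1.202. The 20S core genes summed to 979 ± 52.0 CPM in PBS and 1165 ± 45.8 CPM in rmCIRBP (SD, n = 3 each), and the genes of the 19S particle to 1520 ± 180 and 1846 ± 138 CPM. Core and cap thus had similar ratios, 1.19 and 1.21. The difference between these ratios was not tested.

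Libraries of one group differed for most proteasome genes in the same direction. PBS 1 was the highest PBS library for 33 of the 43 genes and rmCIRBP 2 the highest rmCIRBP library for 33, against 38.0% and 37.8% of all genes tested. The median log2 deviation of the 43 genes from their mean over the 6 libraries was -0.01 in PBS 1, -0.23 in PBS 2 and -0.20 in PBS 3, and 0.09, 0.27 and 0.09 in rmCIRBP 1, 2 and 3. The same pair of libraries was highest for the 4 smooth muscle markers (Actg2, Myh11, Des and Cnn1), which summed to 1129, 487 and 464 CPM in PBS and 594, 1732 and 181 CPM in rmCIRBP, with 0 of 4 called. The 6 proliferation genes summed to 285, 107 and 135 CPM in PBS and 282, 336 and 205 CPM in rmCIRBP. All 6 had a log2 fold change above 0, with a median of 0.57, and 2 (Pcna and Mcm5) were higher at an unadjusted p under 0.05, with 0 of 6 called. The part of these differences in the proteasome result was not tested. Without PBS 1 and rmCIRBP 2, a setting chosen after seeing the data, 14 of 43 genes were called higher and 0 lower. In that setting 10.4% of all genes tested were called higher, and the median log2 fold change of the 43 genes was 0.30.

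**Figure D3:**
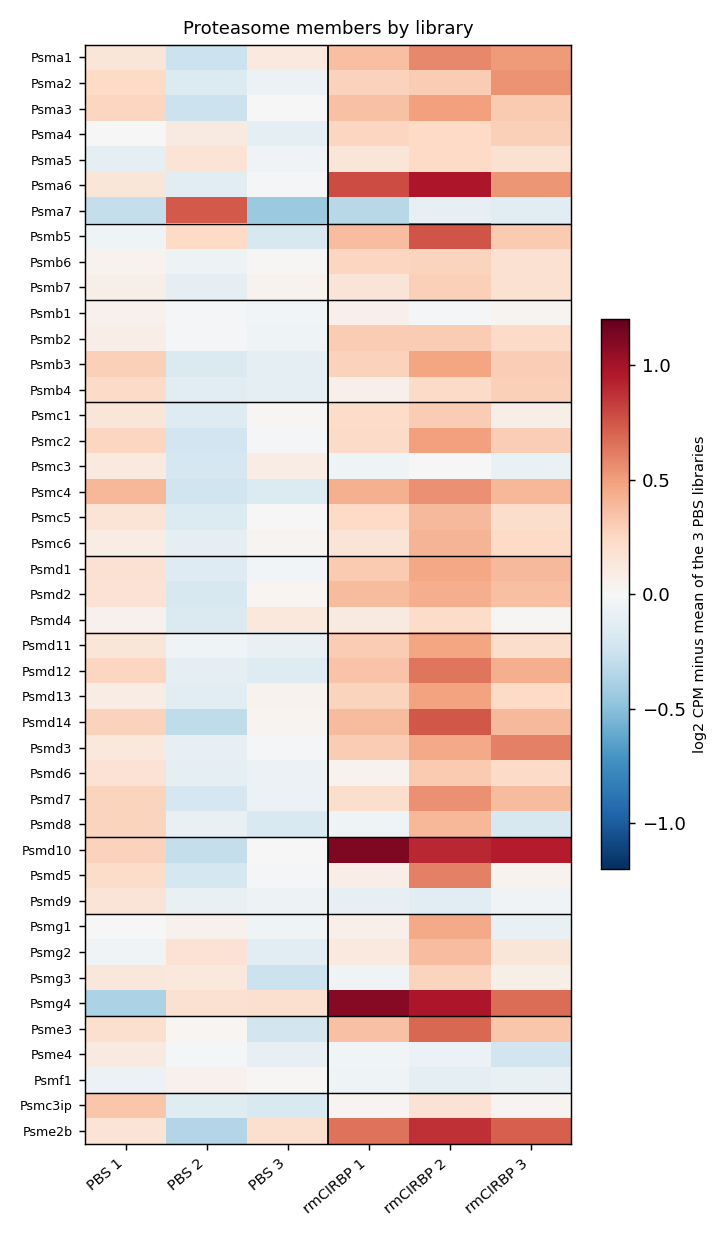
Log2 CPM of each tested gene minus its mean over the 3 PBS libraries, by library (columns) and role (blocks). The columns of the 3 rmCIRBP libraries are mostly red, rmCIRBP 2 most of all, and Psma7 is red in PBS 2 alone.

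Among the alpha subunits, which form the outer rings and bind the regulatory caps, Psma6 rose. Psma6 (ENSMUSG00000021024, GRCm38 chr12:55384222-55418454) was at 70.3, 57.8 and 62.9 CPM in PBS and at 110, 125 and 91.6 CPM in rmCIRBP. Every rmCIRBP library was above every PBS library. The means were 63.7 ± 6.25 and 109 ± 16.6 CPM (SD, n = 3 each), a log2 fold change of 0.77 (SE 0.14) or 1.71-fold, with an edgeR adjusted p of 0.0121. The edgeR adjusted p was 0.0616 without PBS 2, 0.0538 without PBS 3 and 0.0530 without rmCIRBP 1.

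For 6 of the 7 alpha genes tested the log2 fold change was above 0, with a median of 0.37 over the 7. Psma1, Psma2, Psma3 and Psma4 had non-overlapping groups and log2 fold changes of 0.48, 0.37, 0.38 and 0.26, with edgeR adjusted p from 0.0551 to 0.124. Psma5 had a log2 fold change of 0.19 with overlapping groups.

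Psma7, the other end of the range, was at 76.3, 156 and 68.4 CPM in PBS and at 74.1, 87.2 and 85.5 CPM in rmCIRBP. PBS 2 alone was high, and the other 5 libraries lay between 68.4 and 87.2 CPM. The log2 fold change was -0.28 (SE 0.29; adjusted p = 0.561 by edgeR), and without PBS 2 it was 0.20 (edgeR adjusted p = 0.420). Psma8, the alpha subunit of the testis proteasome, had 4, 3 and 4 counts in PBS and 0, 5 and 0 in rmCIRBP and was not tested.

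The catalytic subunits each lay higher in every rmCIRBP library, but 0 of 3 passed the test over all genes and 2 of 3 had an unadjusted p under 0.05. Psmb5, which carries the chymotrypsin-like site, was at 31.2, 38.1 and 28.3 CPM in PBS and at 41.8, 54.6 and 40.2 CPM in rmCIRBP. Its log2 fold change was 0.49 (SE 0.16), or 1.40-fold, with an edgeR adjusted p of 0.0961. Psmb6, which carries the caspase-like site, was at 69.5, 64.8 and 67.8 CPM in PBS and at 80.4, 81.3 and 76.2 CPM in rmCIRBP. The groups were each tight, and the log2 fold change was 0.24 (SE 0.09; adjusted p = 0.129 by edgeR). Psmb7, which carries the trypsin-like site, was at 102, 90.0 and 101 CPM in PBS and at 108, 119 and 110 CPM in rmCIRBP, a log2 fold change of 0.20 (SE 0.10; adjusted p = 0.222 by edgeR). Its nearest libraries, PBS 1 and rmCIRBP 1, were 102 and 108 CPM.

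The beta subunits without a proteolytic site had log2 fold changes of 0.34 (Psmb3), 0.28 (Psmb2), 0.18 (Psmb4) and 0.02 (Psmb1), and 0 of 4 passed the test, with 2 at an unadjusted p under 0.05. Psmb1 was at 117 to 125 CPM in PBS and 118 to 125 CPM in rmCIRBP, so the groups covered the same range. Its log2 fold change was -0.04 with upper quartile scaling and -0.01 with library size scaling. Psmb11, the beta subunit of thymic cortical epithelium, had 0 to 2 counts per library and was not tested.

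Per kilobase of exon, the inducible subunits stood higher relative to their constitutive counterparts with rmCIRBP. Which gene of a pair was the higher depended on the scaling by length. The ratio of Psmb8 to Psmb5 in CPM per kilobase was 0.0433, 0.0318 and 0.0572 in PBS and 0.301, 0.148 and 0.344 in rmCIRBP. That of Psmb9 to Psmb6 was 0.0177, 0.0257 and 0.0464 in PBS and 0.114, 0.0786 and 0.116 in rmCIRBP. Psmb10 to Psmb7 was at 0.290, 0.439 and 0.446 in PBS and at 1.48, 1.06 and 1.46 in rmCIRBP, so that Psmb10 exceeded Psmb7 per kilobase in each rmCIRBP library. As plain counts with rmCIRBP, without division by length, the ratio of Psmb10 to Psmb7 was 0.740, 0.528 and 0.726, and that of Psmb8 to Psmb5 was 1.134, 0.558 and 1.29, so both orders turned except for Psmb8 in rmCIRBP 2. Psmb9 was below Psmb6 on either scale, with count ratios of 0.222, 0.154 and 0.226. The groups did not overlap in any pair, and rmCIRBP 2 had the lowest ratio of its group in each. The log2 ratio was higher with rmCIRBP by 2.54, 1.87 and 1.78, and each two-sided exact permutation test gave p = 0.1 (n = 3 each), the smallest possible with these group sizes.

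The inducible genes themselves rose by a log2 fold change of 3.04 (Psmb8), 1.99 (Psmb9) and 1.97 (Psmb10), with edgeR adjusted p from 0.000296 to 0.00978. Without PBS 2, the edgeR adjusted p of Psmb9 was 0.0546. In absolute terms Psmb8 went from 1.55 to 12.8 CPM per kilobase while Psmb5 was at 36.2 in PBS and 50.6 in rmCIRBP. Exon lengths are the union over all isoforms of GENCODE vM21 (GRCm38), so a long minor isoform lowers a value per kilobase.

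**Figure D4:**
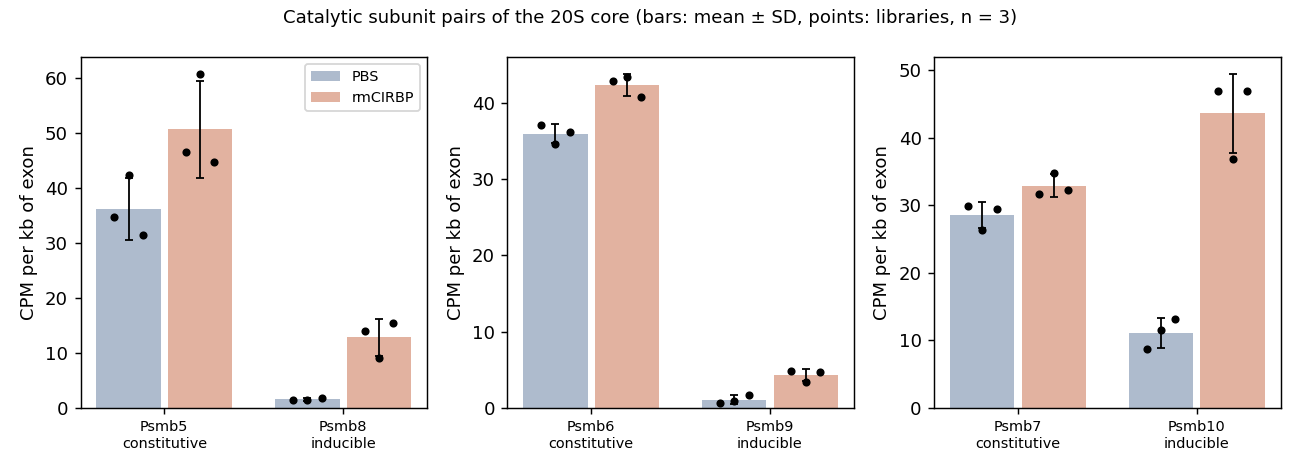
CPM per kilobase of exon of the constitutive and inducible catalytic subunits (bars: mean, error bars: SD, points: 3 libraries per group). On this scale Psmb8 and Psmb9 stay below Psmb5 and Psmb6 in both groups, and Psmb10 lies above Psmb7 with rmCIRBP, whereas as plain counts Psmb10 is below Psmb7 in all 3 rmCIRBP libraries and Psmb8 above Psmb5 in 2 of 3.

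In the ATPase ring of the 19S base, 0 of 6 genes passed the test, 4 had an unadjusted p under 0.05 and 5 of 6 had a log2 fold change above 0, with a median of 0.27. Psmc4 and Psmc2 had the highest values, 0.43 and 0.33, followed by Psmc5 (0.28), Psmc6 (0.27) and Psmc1 (0.20). Of these, Psmc5 and Psmc6 had groups that did not overlap. Psmc3 was at 145, 116 and 143 CPM in PBS and 129, 134 and 127 CPM in rmCIRBP, a log2 fold change of -0.05 (SE 0.12), and without PBS 1 it was 0.01.

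The scaffold subunits of the base, Psmd1 and Psmd2, had the same log2 fold change of 0.39, with edgeR adjusted p of 0.0695 and 0.0810, and groups that did not overlap. Psmd2 had the highest CPM of all 45 genes, at 217, 169 and 196 CPM in PBS and 251, 262 and 249 CPM in rmCIRBP. The rmCIRBP libraries lay close together, well above PBS 1. Psmd4, a ubiquitin receptor, had a log2 fold change of 0.11 with overlapping groups.

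In the lid, Psmd3 rose and all 8 genes taken in by the rule had log2 fold changes above 0, with a median of 0.35. Sem1, a lid subunit whose symbol falls outside the rule, was read among the partner genes. Its log2 fold change was -0.12 with overlapping groups (edgeR adjusted p = 0.579). Among the 8, Psmd8 (0.06) was the lowest, and it was -0.002 with upper quartile scaling, -0.13 without rmCIRBP 2 and -0.03 without PBS 3. Psmd3 (ENSMUSG00000017221, GRCm38 chr11:98682554-98695979), a structural lid subunit, was at 92.7, 79.2 and 83.7 CPM in PBS and at 105, 117 and 129 CPM in rmCIRBP. The groups did not overlap, and the log2 fold change was 0.46 (SE 0.12), or 1.37-fold, with an edgeR adjusted p of 0.0420. The call was lost without any one of PBS 2 (edgeR adjusted p = 0.136), PBS 3 (0.135), rmCIRBP 1 (0.0698), rmCIRBP 2 (0.0632) or rmCIRBP 3 (0.0983), and with upper quartile scaling (0.0595). Psmd3 overlaps the predicted gene Gm12356 on the opposite strand, which was at 8.39 CPM in PBS and 9.34 CPM in rmCIRBP. The strand setting of the counting is not given, so their reads cannot be told apart.

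Psmd14, the lid protease that cuts ubiquitin chains off substrates, was at 57.5, 38.6 and 48.5 CPM in PBS and at 62.1, 79.9 and 62.4 CPM in rmCIRBP. Every rmCIRBP library was above PBS 1, the highest PBS library, by a small margin in rmCIRBP 1 and 3. Its log2 fold change of 0.50 (SE 0.17) was the highest of the lid, with an edgeR adjusted p of 0.0980. Psmd12 (0.46), Psmd11 (0.33) and Psmd13 (0.33) also had groups that did not overlap, with edgeR adjusted p from 0.0749 to 0.0995, and Psmd7 (0.37) and Psmd6 (0.19) had groups that did.

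The chaperones of the 19S base did not move alike. Psmd10, also known as gankyrin, binds the ATPase Psmc4 during assembly of the base and leaves before the particle is complete. Psmd10 (ENSMUSG00000031429, GRCm38 chrX:140948429-140956728) was at 24.4, 16.4 and 20.2 CPM in PBS and at 43.8, 37.8 and 38.7 CPM in rmCIRBP. The lowest rmCIRBP library was well above the highest PBS library. The means were 20.3 ± 3.97 and 40.1 ± 3.20 CPM (SD, n = 3 each), a log2 fold change of 0.98 (SE 0.16) or 1.97-fold, with an edgeR adjusted p of 0.00792. This was the highest log2 fold change of the 43 genes and the one called in all 16 alternatives at that threshold, with adjusted p from 7.44e-06 to 0.0421.

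The other chaperones of the base, Psmd5 and Psmd9, had overlapping groups. Psmd5 was at 52.7, 39.2 and 44.99 CPM in PBS and 48.0, 69.1 and 46.8 CPM in rmCIRBP, with rmCIRBP 2 alone above PBS 1, and its log2 fold change was 0.26 (SE 0.18). Psmd9 was at 22.9 to 27.1 CPM in PBS and 22.2 to 23.7 CPM in rmCIRBP, a log2 fold change of -0.10 (SE 0.12), which was 0.01 without PBS 1 and rmCIRBP 2 together. Their edgeR adjusted p were 0.384 and 0.633.

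The chaperones that assemble the alpha rings of the core, Psmg1 to Psmg4, were expressed at low levels, and 0 of 4 passed the test, with 1 at an unadjusted p under 0.05. Psmg4, singled out after its values were seen, was at 2.16, 3.25 and 3.28 CPM in PBS and 6.25, 5.71 and 4.62 CPM in rmCIRBP. Its groups did not overlap, and the log2 fold change was 0.92 (SE 0.26; adjusted p = 0.0579 by edgeR). It rested on 26 to 48 counts per PBS library and 63 to 85 per rmCIRBP library. Psmg1, Psmg2 and Psmg3 had overlapping groups and log2 fold changes of 0.17, 0.21 and 0.10. Psmg1 was at -0.01 without rmCIRBP 2, and Psmg3 at -0.02 without PBS 3.

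Of the activators other than Psme1 and Psme2, Psme3 encodes the nuclear PA28-gamma ring and Psme4 the PA200 cap. Psme3 was at 78.3, 69.9 and 58.9 CPM in PBS and at 87.6, 110 and 86.7 CPM in rmCIRBP. The groups did not overlap, and the log2 fold change was 0.46 (SE 0.14; adjusted p = 0.0812 by edgeR). Psme4 was at 121, 111 and 105 CPM in PBS and at 110, 107 and 96.2 CPM in rmCIRBP, with overlapping groups and a log2 fold change of -0.11 (SE 0.11; adjusted p = 0.534 by edgeR). Psmf1, which encodes the inhibitor PI31, was at 31.9, 34.8 and 33.8 CPM in PBS and at 32.3, 30.9 and 31.6 CPM in rmCIRBP. It lay within a narrow range in all 6 libraries, with a log2 fold change of -0.09 (SE 0.10; adjusted p = 0.615 by edgeR).

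**Figure D5:**
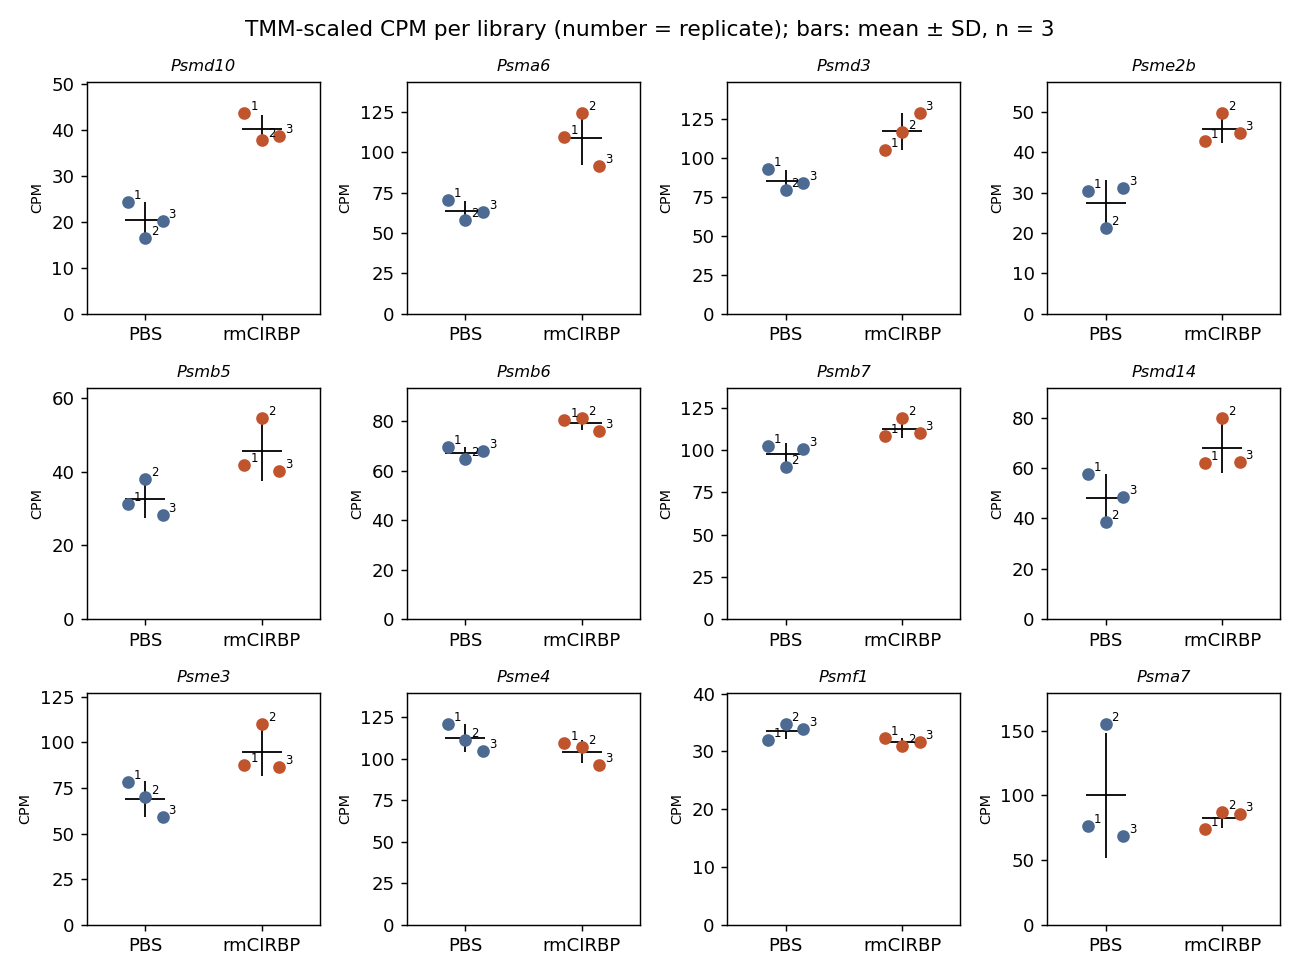
CPM of 12 genes in each library (points, numbered by replicate; bars: mean and SD, n = 3 each), on axes that start at 0. The groups do not overlap for the genes of the upper row and for Psmb5, Psmb6, Psmb7, Psmd14 and Psme3, and overlap for Psme4, Psmf1 and Psma7.

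Psme2b and Psmc3ip matched the rule by symbol only. Psme2b (GRCm38 chr11:48945354-48946190) was at 30.4, 21.2 and 31.0 CPM in PBS and at 42.8, 49.8 and 44.7 CPM in rmCIRBP, and it rose with a log2 fold change of 0.73 (SE 0.16; adjusted p = 0.0264 by edgeR). The edgeR adjusted p was 0.0565 without PBS 2, 0.0525 without PBS 3, 0.0694 without rmCIRBP 1 and 0.0534 without rmCIRBP 3. Psme2, whose sequence it shares, rose by 0.91 (edgeR adjusted p = 0.00247), so how the reads were divided between the copies is uncertain. Psmc3ip was at 3.97 to 5.74 CPM in PBS and 4.62 to 5.13 CPM in rmCIRBP, with a log2 fold change of 0.07 (SE 0.23), which was -0.002 without PBS 2 and -0.03 without PBS 3.

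Subunits that occur in equal numbers in the particle had unequal mRNA levels per kilobase of exon. Over the 14 tested genes of the 20S core, the PBS mean ran from 15.3 CPM per kilobase for Psma3 to 51.6 for Psma6, with a median of 33.4, a spread of 3.38-fold. Over the 17 genes of the 19S particle under the rule it ran from 10.8 CPM per kilobase for Psmd11 to 54.6 for Psmc5. The median was 27.5 and the spread 5.07-fold. Before division by length, PBS means were 59.5 CPM for Psma3 and 63.7 for Psma6, with exon lengths of 3894 and 1234 bases. They were 68.6 CPM for Psmd11 and 76.0 for Psmc5, with lengths of 6383 and 1394 bases. The gaps between these named genes therefore rest mostly on exon lengths, which are unions over all isoforms. Per kilobase, Psma6 had the highest core level already in PBS, 51.6 ± 5.07, close to Psmb4 at 48.0 ± 6.97 (SD, n = 3 each). The gap was smaller than either SD. With rmCIRBP, Psma6 was at 88.1 ± 13.4 and Psmb4 at 54.5 ± 4.21 CPM per kilobase.

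Most assembly factors were below the subunits in level per kilobase of exon. In PBS, 6 of the 7 lay under Psmd11, the lowest of the 19S genes on that scale. The base chaperones were at 3.38 (Psmd9), 6.31 (Psmd5) and 13.8 (Psmd10) CPM per kilobase, and the core chaperones ran from 1.58 (Psmg3) to 9.99 (Psmg1). This order rests partly on exon length, 7230 bases for Psmd5, 7248 for Psmd9 and 1469 for Psmd10. Before division by length, the PBS mean of Psmd5 was 45.6 CPM, above Psmd10 (20.3) and the subunit Psmb5 (32.5). Psmd9, Psmd10 and Psmg1 to Psmg4 were below Psmb5 on both scales. Psmd10 reached 27.3 ± 2.18 CPM per kilobase with rmCIRBP. Psme3, Psme4 and Psmf1 were at 23.4, 13.4 and 5.21 CPM per kilobase in PBS.

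Genes that work with the proteasome were read from a list of 31 tested partners, including transcription factors, ubiquitin receptors, deubiquitinases, shuttles and ubiquitin genes. Of these 3 rose (Nfe2l1, Nfe2l2 and Ubqln4) and 0 fell, where 6.74% of all genes tested rose. At an unadjusted p under 0.05, 13 were higher and 0 lower, where 15% of all genes were higher and 13.8% lower. The median log2 fold change of the partners was 0.28 against -0.01 over all genes. Without PBS 2, PBS 3 or rmCIRBP 1, 0 partners were called, and 1 without rmCIRBP 2, without rmCIRBP 3, or with upper quartile or library size scaling. DESeq2 called 5 higher and 0 lower, where it called 9.15% of all genes tested higher.

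Nfe2l1, which encodes NRF1, was at 457, 456 and 471 CPM in PBS and at 658, 744 and 673 CPM in rmCIRBP. The PBS libraries were nearly alike and lay far below every rmCIRBP library. The log2 fold change was 0.58 (SE 0.11), or 1.498-fold, with an edgeR adjusted p of 0.0171, which was 0.0805 without PBS 2, 0.0651 without PBS 3 and 0.0603 without rmCIRBP 1. Nfe2l2, which encodes the related factor NRF2, was at 98.7, 98.0 and 94.6 CPM in PBS and at 128, 122.7 and 121 CPM in rmCIRBP. Its groups did not overlap, and its log2 fold change was 0.35 (SE 0.09; adjusted p = 0.0424 by edgeR). The call of Nfe2l2 was lost when any single library was left out, with edgeR adjusted p from 0.0563 (without PBS 1) to 0.148 (without rmCIRBP 1), with upper quartile (0.0724) or library size scaling (0.0564), and without a filter on low counts (0.0716).

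Ubqln4, a shuttle that carries ubiquitin-tagged proteins to the proteasome, was at 54.8, 49.5 and 47.8 CPM in PBS and at 64.6, 73.2 and 64.4 CPM in rmCIRBP. The groups did not overlap, and the log2 fold change was 0.41 (SE 0.11; adjusted p = 0.0438 by edgeR). The edgeR adjusted p rose above the threshold without PBS 2 (0.135), PBS 3 (0.1502), rmCIRBP 1 (0.110), rmCIRBP 2 (0.0934) or rmCIRBP 3 (0.0713), and with upper quartile (0.0691) or library size scaling (0.0513).

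Pomp, which matures the core, was at 61.6, 40.4 and 49.7 CPM in PBS and at 68.7, 70.8 and 68.4 CPM in rmCIRBP, a log2 fold change of 0.45 (SE 0.15; adjusted p = 0.0940 by edgeR). The rmCIRBP libraries were alike, and PBS 1 came nearest to them. Adrm1, a ubiquitin receptor of the base, was at 74.6, 66.3 and 64.9 CPM in PBS and 76.6, 86.0 and 87.8 CPM in rmCIRBP, a log2 fold change of 0.28 (edgeR adjusted p = 0.120). The deubiquitinases Usp14 and Uchl5, which act on the 19S particle, had log2 fold changes of 0.20 and 0.33 with overlapping groups (edgeR adjusted p = 0.410 and 0.250). Ubb, which encodes ubiquitin itself, had a log2 fold change of 0.17 with overlapping groups.

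The COP9 signalosome, a complex whose subunits are related to those of the lid, gave a comparison outside the proteasome. Of its 9 genes 0 passed edgeR's test in either direction, where 11.5% of all genes tested did. At an unadjusted p under 0.05, 3 were higher and 0 lower, against 15% and 13.8% of all genes. For 7 the log2 fold change was above 0, against 49.2% of all genes. DESeq2 called 2 of the 9 higher and 0 lower, where it called 9.15% of all genes tested higher. The median log2 fold change of the COP9 genes was 0.13, against 0.35 for the 8 lid genes under the rule, which leaves out Sem1. The difference was not tested. Gps1 (0.42), Cops7a (0.36) and Cops8 (0.33) had every rmCIRBP library above every PBS library, and Cops2 (-0.14) and Cops4 (-0.16) every one below. Over all genes tested these shares were 17.5% and 17.1%.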

How the data were processed

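The authors deposited raw counts per gene for 6 libraries of polyA-selected RNA. Per the submitters' processing notes, these counts were made with featureCounts on GRCm38 (mm10), and the tools named there also include DESeq2 and R 4.1.2. No aligner, strand setting or handling of multi-mapped reads was given in those sources. Genes were filtered with filterByExpr, scaled by TMM and tested with edgeR 4.0.16 (quasi-likelihood, two-sided, adjusted p threshold 0.05) in R 4.3.3, on all genes. The scripts were tested on simulated data. DESeq2 1.42.0, limma 3.58.1 (voom), other scalings and filters, a replicate block and leaving out libraries were alternatives. No pair of libraries was a duplicate.

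The members and gene lists were chosen with earlier results of these data known. Named with values in every library are genes called by the test, the catalytic subunits, Psmd14, Psme3, Psme4, Psmf1, the extremes and listed partners. The others account for their group. The partner Paaf1 was not analysed here. The thresholds used to describe neighbouring genes and single high libraries were chosen after seeing the data.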

Additional observations from a re-analysis of the deposited data

How the results depend on the processing

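The number of proteasome genes called higher depended on the setting. It was 4 as reported, and 4 with DESeq2's size factors, library size scaling, limma voom, protein-coding genes alone or a minimum of 1 CPM. It was 3 with upper quartile scaling, 10 without a filter on low counts, 9 with DESeq2, 14 at an adjusted p of 0.1 and 14 without PBS 1 and rmCIRBP 2 together. The share of all genes called higher was 5.85% with upper quartile scaling and 5.47% without a filter. It was 9.15% with DESeq2 and 10.4% without PBS 1 and rmCIRBP 2 together, against 6.74% as reported. At an adjusted p of 0.1 the share of all genes was not computed. The counts at that threshold, 14 proteasome genes and 8 partner genes, therefore cannot be set beside it. Leaving out 1 library gave 1 (without PBS 2, PBS 3 or rmCIRBP 1) to 13 (without PBS 1), while all genes called fell from 1818 to 723, 863 and 742 without PBS 2, PBS 3 and rmCIRBP 1. No gene of the 43 was called lower in any of these. The partner genes called higher were 3 as reported, 1 with upper quartile or library size scaling, 5 with DESeq2, 8 at an adjusted p of 0.1, 8 without PBS 1 and rmCIRBP 2 together, and 0 to 4 when 1 library was left out. The median log2 fold change of the proteasome genes stayed between 0.21 and 0.37. The scalings moved the median of all genes to at most -0.07.

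Same-numbered libraries of the 2 groups deviated from their group means with correlations of -0.11, -0.17 and 0.25. The largest correlation between the groups was 0.36, for PBS 1 with rmCIRBP 2. Deviations from a mean of 3 libraries depend on one another, so these correlations cannot decide whether samples were paired. With the number as a replicate block, 2 proteasome genes (Psma6 and Psmd10) and 0 partner genes were called higher, and 1258 genes in all.

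Small values changed sign. Psmb1 was at -0.0409 with upper quartile and -0.0084 with library size scaling, and Psmd8 at -0.0022 with upper quartile scaling. Without PBS 1 and rmCIRBP 2 together, Psmg1 was at -0.0064 and Psmd9 at 0.0079. Leaving out 1 library gave -0.4953 to 0.1964 for Psma7, -0.1366 to 0.0132 for Psmc3, -0.0311 to 0.2643 for Psmc3ip, -0.1316 to 0.2179 for Psmd8, -0.0083 to 0.2812 for Psmg1 and -0.0244 to 0.1777 for Psmg3. The cause was not tested. The 3 libraries per group and the counts of genes such as Psmg3 and Psmg4 limit which differences could be seen.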

Other observations

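The proteasome genes had strongly responding neighbours at a share near that of all genes. Of the 43 tested genes, 3 (6.98%) had a gene within 200 kb that was called at least 3 log2 units higher, against 4.59% of all genes tested. Csf3, the gene of the neutrophil growth factor G-CSF, lies 5.3 kb from Psmd3 on the same strand and went from a mean of 0.207 CPM in PBS to 6.69 CPM in rmCIRBP. Nfkbia, the gene of the NF-kB inhibitor IkB-alpha, lies 71.0 kb from Psma6 and went from 18.9 to 255 CPM, while Prorp, 1.7 kb from Psma6, was at 12.4 and 11.9 CPM. Zmynd15 lies 59.2 kb from Psmb6 and had a log2 fold change of 3.72. Atg4a, an autophagy protease gene, lies 0.2 kb from Psmd10 on the other strand and rose from 15.5 to 25.5 CPM, a log2 fold change of 0.72 (edgeR adjusted p = 0.0211), beside 0.98 for Psmd10. Mid2, 180.7 kb from Psmd10, went the other way, with a log2 fold change of -0.58 (edgeR adjusted p = 0.02425). Psme2b lies within 200 kb of the interferon-inducible GTPase genes Tgtp1, Tgtp2, Irgm1 and Ifi47, which had log2 fold changes of 2.57, 2.86, 0.89 and 2.30.

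Psma7 was at 156 CPM in PBS 2, which was 2.04 times the higher of the other PBS libraries. Among 10107 genes with a mean of at least 10 CPM, 32 (0.317%) reached 1.8 times both other PBS libraries in PBS 2, and Psma7 was the 1 proteasome gene among them. Its neighbours Ss18l1 (0.1 kb away) and Lsm14b (0.9 kb away) were at 1.13 and 0.804 times the higher of the other PBS libraries in PBS 2. The imprinted RNAs H19 and Meg3 were among the 32, at 4.88 and 2.13 times.

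Of 5 processed pseudogenes named after proteasome genes, Psma5-ps had 44 to 88 counts per PBS library and 77 to 98 per rmCIRBP library. The other 4 had 0 to 2 counts in each library.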
